A study of Mus musculus with 3 samples.

Results

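Isl1, a homeodomain protein of the LIM class that marks cardiac progenitors, was mapped by chromatin immunoprecipitation sequencing (ChIP-seq), and the regions examined here are its peaks at the numbered Zfp genes, a large group of mouse genes named for their zinc fingers. Members were the peaks whose assigned gene symbol was Zfp followed only by digits, with Zfp42 set aside. After identical repeated lines were counted once, 194 of the 14082 peaks, or 1.38%, met this rule, and they were assigned to 135 of the 9313 gene names in the list. Zfp42, a pluripotency marker, had 0 peaks in any case. Repeated lines were found for 3 of the Zfp peaks and for 75 others (0.540%). A further 23 peaks of 17 Zfp symbols that carry letters, such as Zfpm2, fell just outside the rule.

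The cells were derived from E14 Tg(Nkx2-5-EmGFP) embryonic stem cells, a mouse line in which a green fluorescent reporter follows the cardiac gene Nkx2-5, and were harvested as cardiac progenitors on day 5 of differentiation with BMP4, Activin A, VEGF and FGF factors. All samples came from this 1 line and carried the reporter, and the labels name no other allele. There were 2 Isl1 ChIP samples and 1 input sample, and the ChIP used an antibody to Isl1 from the Developmental Studies Hybridoma Bank. The list analysed is a single set of regions held in common by the ChIP samples, so no value here has a spread between replicates, and the list gives neither read counts nor peak scores, so the depth is unknown. The identity of the cells could not be checked, since a peak list measures no expression.

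C2H2 zinc-finger proteins bind DNA through repeated small loops, each held in shape by a zinc ion. Many also carry a KRAB box, a short repression domain that recruits the corepressor Trim28, which in turn brings in the histone methyltransferase Setdb1 and heterochromatin proteins, and KRAB zinc-finger proteins are best known for silencing transposable elements. The KRAB genes arose largely by tandem duplication and lie in clusters of similar copies, whereas zinc-finger genes without the box are mostly single, conserved regulators of development.

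The Zfp peaks took 3 recognisable forms, and their sequences are shown because the rest of the description turns on them. The first is the CpG-rich promoter. The central 200 bp of 4 such peaks, all at single-copy sequence of the mm9 genome (NCBI m37), are printed 5′ to 3′ on the plus strand with every CpG in capitals. Zfp423 encodes a partner of BMP-responsive Smad proteins, Zfp219 a partner of Sox9, and Zfp282 carries a KRAB-type box.
Zfp423 (chr8:90484232-90484431, plus strand): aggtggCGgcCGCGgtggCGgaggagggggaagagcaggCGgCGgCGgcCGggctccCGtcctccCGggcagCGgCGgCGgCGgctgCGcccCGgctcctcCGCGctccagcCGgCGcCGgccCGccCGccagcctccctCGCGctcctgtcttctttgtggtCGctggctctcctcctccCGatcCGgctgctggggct
Zfp362 (chr4:128483474-128483673, plus strand): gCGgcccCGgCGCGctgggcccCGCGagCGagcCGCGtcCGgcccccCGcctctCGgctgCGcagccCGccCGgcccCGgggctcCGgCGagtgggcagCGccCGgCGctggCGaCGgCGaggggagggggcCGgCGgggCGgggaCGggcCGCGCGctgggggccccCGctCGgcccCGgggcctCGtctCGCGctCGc
Zfp219 (chr14:52634016-52634215, plus strand): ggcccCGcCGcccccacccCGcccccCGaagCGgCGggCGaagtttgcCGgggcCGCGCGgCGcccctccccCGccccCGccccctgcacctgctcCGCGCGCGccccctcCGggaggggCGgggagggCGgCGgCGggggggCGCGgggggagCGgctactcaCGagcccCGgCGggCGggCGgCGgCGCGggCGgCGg
Zfp282 (chr6:47827703-47827902, plus strand): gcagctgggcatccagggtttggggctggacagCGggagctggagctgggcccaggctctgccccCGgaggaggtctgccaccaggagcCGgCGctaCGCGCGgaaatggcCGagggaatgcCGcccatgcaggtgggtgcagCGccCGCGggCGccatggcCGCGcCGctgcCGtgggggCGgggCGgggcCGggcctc
These windows held 28, 38, 36 and 20 CpGs, respectively. Over all 75 Zfp peaks within 1 kb of a transcription start site (TSS) the median was 26 CpGs in the central 200 bp, against 25 in the 5341 other peaks of that class.

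The second form is the finger-coding exon. Below are the central 200 bp of 3 peaks whose midpoint lay in a coding exon of the assigned gene, more than 1 kb from its TSS, printed 5′ to 3′ on the coding strand (mm9). Capitals mark the bases that translate into a C2H2 finger pattern, read from its opening cysteine to its closing histidine.
Zfp697 (chr3:98231822-98232021, plus strand): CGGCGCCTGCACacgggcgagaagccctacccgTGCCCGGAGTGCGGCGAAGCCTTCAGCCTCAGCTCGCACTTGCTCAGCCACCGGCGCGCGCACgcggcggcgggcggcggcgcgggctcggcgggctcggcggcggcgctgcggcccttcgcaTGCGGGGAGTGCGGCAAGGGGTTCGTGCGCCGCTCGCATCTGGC
Zfp46 (chr4:135846517-135846716, plus strand): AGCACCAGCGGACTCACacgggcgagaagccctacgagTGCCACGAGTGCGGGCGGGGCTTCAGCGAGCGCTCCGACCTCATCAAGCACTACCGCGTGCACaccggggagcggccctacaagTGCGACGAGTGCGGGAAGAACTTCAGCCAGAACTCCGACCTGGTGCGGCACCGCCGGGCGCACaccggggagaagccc
Zfp316 (chr5:144015729-144015928, minus strand): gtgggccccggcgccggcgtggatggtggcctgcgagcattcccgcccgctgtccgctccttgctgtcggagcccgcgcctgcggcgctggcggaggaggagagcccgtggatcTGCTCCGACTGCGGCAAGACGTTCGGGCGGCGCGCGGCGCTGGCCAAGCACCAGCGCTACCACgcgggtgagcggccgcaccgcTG
The Zfp46 window shows fingers joined by short linkers, whereas the windows of Zfp697 and Zfp316 also hold longer unmarked stretches. The 3 whole peaks held 11, 8 and 14 such patterns, respectively.

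The third form is a sequence with many copies in the genome, far from any TSS. The lines below show the same stretch in peaks assigned to 5 genes on 5 different autosomes, with 31 bases identical in all of them in capitals and 30 bases of flank on each side (mm9, 5′ to 3′ on the strand named).
Zfp326 (chr5:106452159-106452249, plus strand): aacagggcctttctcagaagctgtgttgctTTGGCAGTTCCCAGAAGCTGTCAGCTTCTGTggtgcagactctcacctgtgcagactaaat
Zfp386 (chr12:117227146-117227236, plus strand): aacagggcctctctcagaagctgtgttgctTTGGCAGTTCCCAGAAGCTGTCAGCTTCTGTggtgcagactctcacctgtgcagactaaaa
Zfp462 (chr4:54459797-54459887, plus strand): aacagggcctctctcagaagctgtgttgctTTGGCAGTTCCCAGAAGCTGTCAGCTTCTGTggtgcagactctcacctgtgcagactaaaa
Zfp746 (chr6:48122383-48122473, plus strand): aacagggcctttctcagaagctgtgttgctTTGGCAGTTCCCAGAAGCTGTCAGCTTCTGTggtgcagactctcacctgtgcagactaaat
Zfp960 (chr17:16994817-16994907, plus strand): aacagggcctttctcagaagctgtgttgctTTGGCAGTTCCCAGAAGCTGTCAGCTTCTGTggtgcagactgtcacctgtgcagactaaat
The capitalised string occurred 1500 times in the genome on either strand. It was present in 12 Zfp peaks and in 492 of all 14082 peaks (3.49%), 475 of which lay over 10 kb from the assigned TSS.

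A different repeated stretch joined another group of Zfp peaks and is printed in the same way, again with the 31 shared bases in capitals.
Zfp157 (chr5:138815122-138815212, plus strand): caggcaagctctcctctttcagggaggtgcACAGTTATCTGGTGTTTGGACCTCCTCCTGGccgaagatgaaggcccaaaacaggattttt
Zfp277 (chr12:41103264-41103354, plus strand): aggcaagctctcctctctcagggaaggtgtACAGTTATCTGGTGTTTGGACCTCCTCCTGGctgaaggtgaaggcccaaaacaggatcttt
Zfp330 (chr8:85242564-85242654, plus strand): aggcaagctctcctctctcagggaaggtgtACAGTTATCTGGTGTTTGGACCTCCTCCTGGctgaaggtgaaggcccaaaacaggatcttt
Zfp369 (chr13:65503801-65503891, minus strand): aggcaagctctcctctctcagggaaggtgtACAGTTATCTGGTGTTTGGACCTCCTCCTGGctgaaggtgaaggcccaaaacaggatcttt
Zfp932 (chr5:110403504-110403594, minus strand): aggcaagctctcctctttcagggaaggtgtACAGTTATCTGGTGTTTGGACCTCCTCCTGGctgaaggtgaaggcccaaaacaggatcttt
This string occurred 1683 times in the genome, in 12 Zfp peaks and in 509 of all peaks (3.61%), 486 of them over 10 kb from the TSS. The shared strings are thus features of the whole list as well as of the Zfp peaks.

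The promoter share of Zfp peaks did not differ from that of the remaining peaks beyond counting error. Of the 194 peaks, 75 (38.7%, 95% Wilson interval 32.1 to 45.7) lay within 1 kb of the TSS, against 38.5% of the 13888 other peaks, a difference of 0.202 percentage points (Newcombe interval -6.42 to 7.26). Intervals here cover counting error only, and neighbouring peaks and peaks of 1 gene are not independent. At single-copy sequence alone the Zfp share was the lower, 61.7% against 70.1% of other peaks (interval of the difference -17.4 to -0.176). The median position of the promoter peaks was 109 bp downstream of the TSS, and 48 Zfp peaks (24.7%) were within 200 bp of it, against 21.4% of other peaks.

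Away from the promoter the distribution was shifted inwards. The class from 1 to 10 kb held 30 Zfp peaks (15.5%) against 10.4% of other peaks, a difference of 5.07 points (interval 0.631 to 10.8), and 20 of these 30 were downstream of the TSS. Conversely, 31 Zfp peaks (16.0%) lay more than 100 kb away against 23.1% of other peaks, a difference of -7.13 points (interval -11.7 to -1.28). The class from 10 to 100 kb, with 58 peaks (29.9% against 28.0%), differed by less than its interval.

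**Figure D1:**
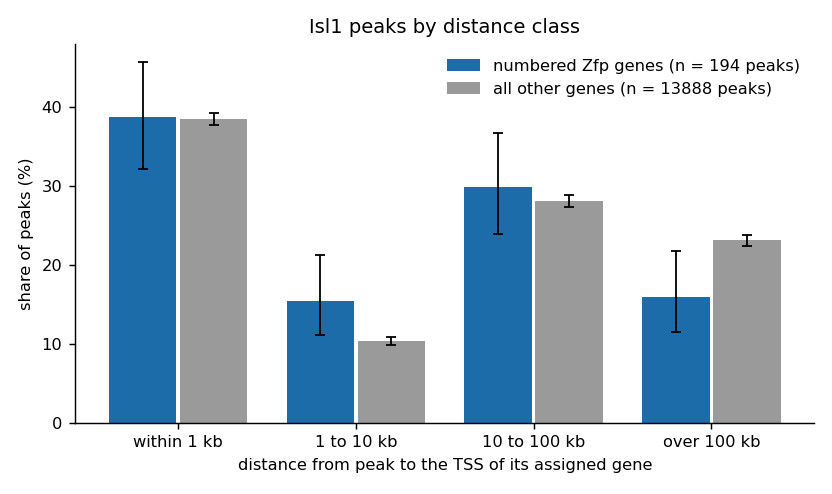
Share of peaks in percent (vertical axis) in each class of distance to the TSS of the assigned gene (horizontal axis), for the 194 Zfp peaks (blue) and the 13888 other peaks (grey), with 95% Wilson intervals as error bars. The bars are level within 1 kb (38.7% and 38.5%), the Zfp bar is the higher from 1 to 10 kb (15.5% against 10.4%) and the lower over 100 kb (16.0% against 23.1%).

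By the median, Zfp peaks were somewhat narrower. Their median width was 862.5 bp (interquartile range 670.25 to 1186.25) against 948 bp for other peaks, and the median was lower in each class: 982 against 1052 bp within 1 kb, 723.5 against 822 bp from 1 to 10 kb, 788.5 against 853 bp from 10 to 100 kb, and 849 against 921 bp beyond. From 1 to 10 kb the upper quartile and the mean went the other way, at 1313.5 against 1128 bp and 1021 against 947 bp. No interval was computed for the class medians. The widest Zfp peaks were those assigned to Zfp784 (2839 bp), Zfp316 (2640 bp) and Zfp664 (2136 bp), and the narrowest those of Zfp583 (345 bp), Zfp954 (356 bp) and Zfp507 (384 bp). At least 2000 bp were spanned by 6 Zfp peaks (3.09%), the same share as among other peaks (3.09%).

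Most Zfp genes in the list had 1 peak. Of the 135 genes, 100 had 1, 21 had 2 and 14 had 3 or more, which gives 1.44 ± 0.927 peaks per gene (SD over genes) against 1.51 ± 1.08 for the 9178 other gene names. No Zfp gene exceeded 6 peaks, while the highest count among other names was 12.

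The family as a whole was in the list about as often as any protein-coding gene, but the KRAB box divided it. A peak was assigned to 135 of 366 protein-coding numbered Zfp genes (36.9%, interval 32.1 to 41.9), against a background of 37.5% of the 21887 protein-coding genes tested. For a peak within 1 kb the count was 73 of 366 (19.9%) against 23.2% of all protein-coding genes, and for at least 2 peaks 35 of 366 (9.56%) against 10.6%. The 135 comprise 134 members and 1 gene, Zfp267, that the list carries under an older name; member Zfp783 is not protein-coding in the reference table and was left out of these shares.

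KRAB-type genes, defined by a KRAB-like string in the protein translated from the annotation, were assigned a peak in 49 of 208 cases (23.6%, interval 18.3 to 29.8). Zfp genes without such a string were assigned a peak in 85 of 150 cases (56.7%, interval 48.7 to 64.3), so the difference was -33.1 points (interval -42.4 to -23.0). The contrast was of similar size in points at promoters. There 16 KRAB-type genes (7.69%) and 57 of the others (38.0%) had a peak within 1 kb, a difference of -30.3 points (interval -38.8 to -21.7). Read against the backgrounds of 37.5% and 23.2%, the KRAB-type genes were below and the others above in both measures. Since the string search misses some boxes (Zfp213 and Zfp212, for example, were not matched), the group without it still holds KRAB genes.

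**Figure D2:**
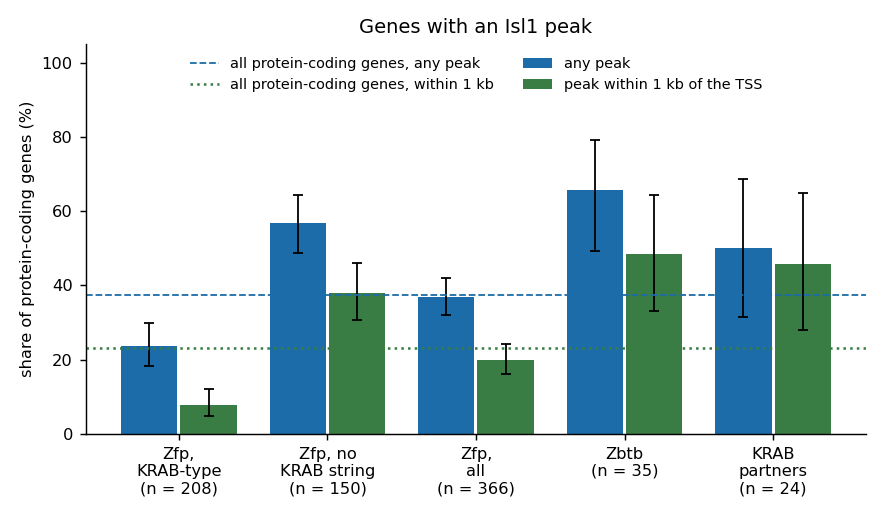
Share of protein-coding genes in percent (vertical axis) with any assigned Isl1 peak (blue) or a peak within 1 kb of the TSS (green), by gene group with the number of genes in parentheses; error bars are 95% Wilson intervals and the lines give the shares over all protein-coding genes. KRAB-type Zfp genes lie under both lines (23.6% and 7.69%), and Zfp genes without the string lie above both (56.7% and 38.0%).

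The peaks of the KRAB-type and the remaining members also differed in kind. Of 70 peaks at KRAB-type genes 15 (21.4%) were within 1 kb of the TSS, against 59 of 122 (48.4%) at the other genes, a difference of -26.9 points (interval -38.8 to -12.9). Multi-copy sequence, defined as a median of 2 or more genome copies for the 31-base strings in the central 200 bp, underlay 40 peaks (57.1%) at KRAB-type genes and 33 (27.0%) at the others, a difference of 30.1 points (interval 15.7 to 43.1). Median width was 726 against 910 bp, and the GC content of the peak centre was 63.6 ± 11.2% against 70.1 ± 9.41% (SD over peaks). More of the KRAB-type peaks lay over 10 kb from the TSS, 46 (65.7%) against 42 (34.4%). At that distance 81.3% of the peaks outside the Zfp family were multi-copy. Copy number, width and GC content were not compared between KRAB-type and other members within distance classes. For 20 of the 48 KRAB-type members and 12 of the 85 others, every peak in the list was at multi-copy sequence. Peaks per listed gene did not separate them, at 1.46 and 1.44.

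KRAB-type promoter peaks were nonetheless found at 15 members, each at single-copy sequence. They belonged to Zfp69, Zfp266, Zfp282, Zfp316, Zfp398, Zfp641, Zfp647, Zfp655, Zfp707, Zfp709, Zfp746, Zfp777, Zfp868, Zfp869 and Zfp872, a set named here in full after the values were seen. The widest was at Zfp777 (1865 bp, centred 63 bp upstream of the TSS, GC 88.0%) and the next at Zfp746 (1321 bp, 223 bp downstream, GC 82.0%). Zfp746 encodes a repressor of the metabolic coactivator gene Ppargc1a. The narrowest, 525 bp, was at Zfp868.

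Promoter base composition moved with the presence of a peak. In windows from 250 bp before to 50 bp after the annotated TSS, median GC was 63.5% for Zfp genes with a peak within 1 kb, 51.7% for those with only farther peaks and 51.0% for those without a peak. Other protein-coding genes showed the same order, at 63.3% with a promoter peak and 53.2% without. KRAB-type promoters had a median GC of 50.0% and the remaining Zfp promoters 59.4%.

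Within bands of promoter GC the KRAB-type genes had the lower share, beyond counting error in the middle bands only. From 45 to 55% GC, 3 of 111 KRAB-type genes (2.70%) and 8 of 42 others (19.0%) had a promoter peak, a difference of -16.3 points (interval -30.7 to -6.02). From 55 to 65% the counts were 6 of 40 (15.0%) and 19 of 57 (33.3%), a difference of -18.3 points (interval -33.5 to -0.570). At 65% and above they were 4 of 7 and 29 of 39, and below 45% they were 3 of 50 and 1 of 12, and in both of these bands the interval of the difference spans 0. The bands are wide or open-ended, and CpG content was not matched within them. What part base composition plays in the contrast was not tested beyond these bands.

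**Figure D3:**
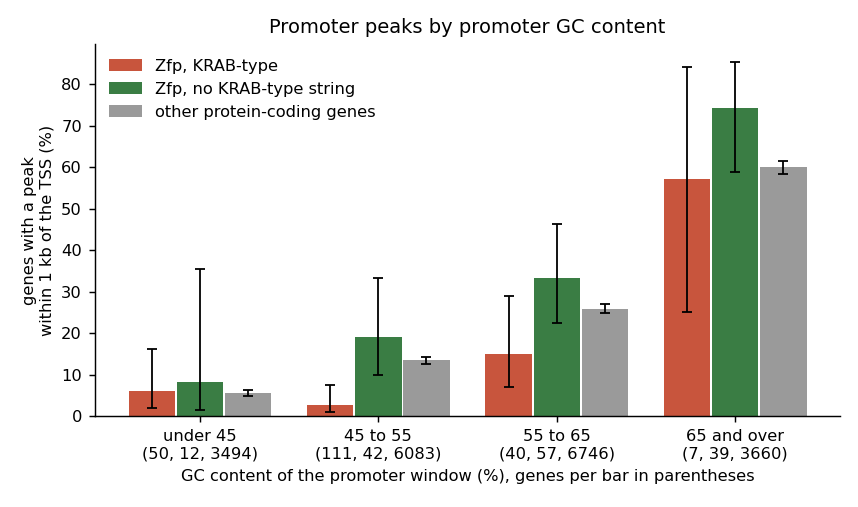
Share of genes in percent with an Isl1 peak within 1 kb of the TSS (vertical axis) in bands of promoter GC content (horizontal axis), for KRAB-type Zfp genes (red), Zfp genes without a KRAB-type string (green) and other protein-coding genes (grey); error bars are 95% Wilson intervals. The green and grey bars rise with GC, the red bar is lowest at 45 to 55% (3 of 50 genes below 45% GC and 3 of 111 at 45 to 55%), and the red bar is under the green one in every band, from 2.70% against 19.0% at 45 to 55% GC to 57.1% against 74.4% at 65% and above.

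Gene clustering went with the same division. Of 203 Zfp genes with the TSS of another numbered Zfp gene within 100 kb, 52 (25.6%) had a peak, against 82 of 155 (52.9%) without such a neighbour, a difference of -27.3 points (interval -36.8 to -17.2). Most of the neighboured genes, 158, were KRAB-type. Among KRAB-type genes the shares were 20.3% with a neighbour and 34.0% without, and among the others 44.4% and 61.9%. For promoter peaks the shares over all Zfp genes were 25 of 203 (12.3%) with a neighbour and 48 of 155 without, a difference of -18.7 points (interval -27.2 to -10.1). Among KRAB-type genes they were 7.59% and 8.00%, and among the others 28.9% and 41.9%. Whether the differences within the KRAB-type genes, or within the others, exceed counting error was not tested. The backgrounds over all protein-coding genes were 37.5% for any peak and 23.2% for a promoter peak. The 8 Zfp genes with no protein in the annotation are not in these counts.

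Genes whose proteins work with KRAB zinc fingers were examined for comparison. Of 24 partner genes on the list used here, 12 (50.0%, interval 31.4 to 68.6) had an assigned peak, an interval that holds the background of 37.5%, and 11 (45.8%, interval 27.9 to 64.9) had one within 1 kb, against the background of 23.2%. Trim28, the corepressor that the KRAB box binds, had a 1315 bp peak centred 455 bp downstream of its TSS, and Setdb1 an 804 bp peak 294 bp downstream, at sequence with a median of 2 copies. Dnmt3a, a de novo DNA methyltransferase, had 2 promoter peaks, of 2408 and 783 bp. Peaks were also listed within 1 kb at Cbx1, Hdac2, Chd3, Mta1, Dnmt3b, Smarcad1, Morc3 and Kdm1a, whereas the remodeller gene Chd4 had only a 523 bp peak at -2892 bp from the TSS (a negative value is upstream), at multi-copy sequence. Among related families, Zbtb genes, whose zinc-finger proteins carry a BTB domain, had a peak in 23 of 35 cases (65.7%, interval 49.2 to 79.2), above the background of 37.5%. Zscan and Zkscan genes had 2 of 11 each (18.2%, interval 5.14 to 47.7), and that interval holds the background.

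Of 55 Zfp symbols listed from general knowledge of function, 28 (50.9%) had an assigned peak and 19 (34.5%) had one within 1 kb, beside backgrounds of 37.5% and 23.2%. These counts include Zfp161 and Zfp238, which the list carries as Zbtb14 and Zbtb18 and which are not members, so that 26 and 18 were members. The symbols Zfp354 and Zfp804 matched no gene in the reference names. They stay among the 55, which lowers both shares beside the backgrounds. Zfp423 had 4 peaks, at 549, -837, -2292 and -58078 bp from the TSS (negative values are upstream), with widths of 1834, 902, 1407 and 741 bp. The 3 nearest were single-copy and formed an almost continuous block over the promoter, while the fourth lay on repeated sequence with a median of 5 copies.

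Zfp281, a regulator of pluripotency exit, had a 1315 bp peak 379 bp downstream of its TSS, and Zfp148, which binds GC-rich promoters, a 1222 bp peak 248 bp downstream. Zfp703, a corepressor of the NET family, had a 1505 bp peak centred 1 bp upstream of its TSS and a second, multi-copy peak 41316 bp upstream. Its relative Zfp503 had 2 peaks downstream of its deposited TSS, at 2001 and 3899 bp, of 889 and 1680 bp. The nearer of these lay within 1 kb of another Zfp503 TSS in GENCODE, so whether it is a promoter peak depends on the annotation. In all, 7 Zfp peaks over 1 kb from the deposited TSS had a GENCODE coding TSS within 1 kb, in some cases of another gene. Conversely, 6 peaks counted as within 1 kb had no such TSS in GENCODE. Single promoter peaks were listed at Zfp217 (1388 bp), a corepressor-associated oncogene, at Zfp335 (1414 bp), part of a histone methyltransferase complex, at Zfp609 (1188 bp), a partner of the cohesin loader, and at Zfp644 (1168 bp), a partner of the histone methyltransferase G9a. These were all at single-copy sequence.

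Several well-studied Zfp genes had no peak. They included Zfp57 and Zfp445, KRAB proteins that guard imprinted methylation, Zfp568, which represses a placental Igf2 transcript, Zfp809, which silences retroviruses, Zfp260, a cofactor of Gata4 in the heart, and Zfp36, an RNA-binding protein with fingers of another type. Of the 366 protein-coding numbered Zfp genes 231 had no assigned peak. The share with a peak, 36.9%, was near the 37.5% of all protein-coding genes. Since the list holds no signal below its threshold, the absence of a peak says only that no region was listed for a gene.

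Peaks over the finger-coding exons made up a separate set. A midpoint in a coding exon of the assigned gene was found for 20 Zfp peaks, 12 of them more than 1 kb from the TSS: at Zfp46, Zfp64, Zfp219, Zfp316, Zfp319, Zfp503, Zfp513, Zfp574, Zfp579, Zfp580, Zfp652 and Zfp697. All 12 were at single-copy sequence, with GC content at the centre from 62.0 to 78.0%. The Zfp513 peak, 1521 bp from its deposited TSS, lay within 1 kb of another Zfp513 TSS in GENCODE. In a translation of the whole peak in 6 frames, 11 of the 12 held at least 1 C2H2 pattern and 10 held 2 or more. Zfp316 had 14 patterns under its 2640 bp peak, Zfp319 had 12, Zfp574 and Zfp697 had 11 each, Zfp46 and Zfp579 had 8 each and Zfp219 had 6. The exception was Zfp503, whose peak held 0.

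None of the 8 coding-exon peaks within 1 kb of the TSS held the pattern, and the remaining 174 Zfp peaks held it in 8 cases (4.60%). Among other peaks with a midpoint in a coding exon more than 1 kb from the TSS, 39 of 614 (6.35%) held at least 1 pattern, and among all other peaks 185 of 13888 (1.33%). Because Zfp genes are named for their fingers, this contrast follows from the choice of genes and says nothing about peak placement. Zfp coding exons without a peak were not examined. The median width of the 12 peaks was 1417 bp, against 956 bp for those 614.

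Assignment to the nearest TSS hid a few such peaks. The widest Zfp peak, assigned to Zfp784 from 7533 bp downstream, had its midpoint in a coding exon of Zfp865 and held 21 finger patterns. That midpoint also lay within 1 kb of a Zfp865 TSS in GENCODE. A 942 bp peak assigned to Zfp213 lay in a coding exon of Zfp13 with 8 patterns, and an 883 bp peak assigned to Zfp212 lay in a coding exon of Zfp282 with 5. Zfp865, Zfp13 and Zfp282 are zinc-finger genes as well, so for these 3 peaks the assigned and the overlapped gene belong to the same family.

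Repeated sequence underlay 74 Zfp peaks (38.1%, interval 31.6 to 45.1) against 46.6% of other peaks, a difference of -8.46 points (interval -15.1 to -1.41). With 75-base strings in place of 31 the shares were 25.3% and 28.5%, and the interval of the difference, -8.86 to 3.38, spans 0. Repeated sequence was almost absent from promoters, with 1 of 75 Zfp peaks within 1 kb, and rose to 7 of 30 from 1 to 10 kb, 38 of 58 (65.5%) from 10 to 100 kb and 28 of 31 (90.3%) beyond. Other peaks followed the same course, with 2.64%, 38.7%, 73.9% and 90.2%. The lone promoter case, Zfp710, was a simple repeat with a median of 831726 copies and is named here after its value was seen. Sequence of very high copy number, 100 or more, was less frequent in Zfp peaks over 10 kb away, at 37 of 89 (41.6%) against 57.3% of other peaks at that distance, a difference of -15.7 points (interval -25.4 to -5.25). The reads were aligned with a tool that by default places a read with several equal matches at 1 of them, so at such sequence the position of a peak is uncertain, and how much of the distal set this touches was not tested.

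**Figure D4:**
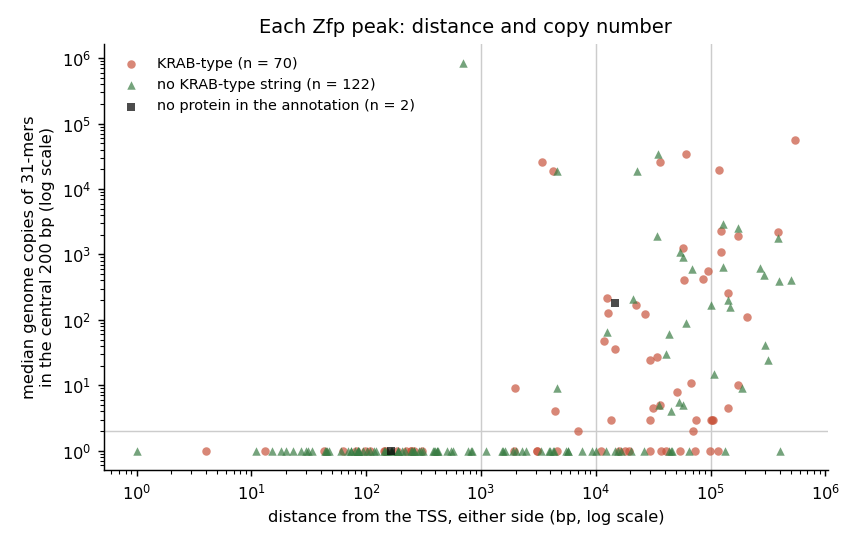
Each of the 194 Zfp peaks by its distance from the TSS of the assigned gene in bp (horizontal log axis, either side) and by the median number of genome copies of the 31-base strings in its central 200 bp (vertical log axis), in red circles for KRAB-type genes, green triangles for genes without the string and black squares for genes with no protein in the annotation; grey lines mark 1, 10 and 100 kb and 2 copies. Within 1 kb all but 1 of 75 peaks lie at 1 copy, and over 100 kb 28 of 31 lie at 2 or more.

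Shared sequence tied distant Zfp peaks together. With simple tandem repeats set aside, 43 Zfp peaks fell into 8 groups linked by at least 20 shared 31-base strings. The largest joined 17 peaks of 12 genes on 8 chromosomes and the next 13 peaks of 12 genes, also on 8 chromosomes. A group of 3 peaks, at Zfp507, Zfp619 and Zfp808, carried a string with 2678 copies in the genome. All 33 peaks of these 3 groups were more than 10 kb from the TSS. With 50 shared strings required, the 3 groups had 17, 9 and 3 peaks. KRAB-type genes accounted for 7 of the 17 and 7 of the 13 peaks.

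Of the 5 genes with most peaks, 4 had mostly multi-copy peaks, and Zfp423, described above, was the exception with 1 of its 4. Zfp462, a zinc-finger protein of stem cells and neural development, had 6 peaks, at -500539, -315082, -292198, -271422, 1116 and 45398 bp. The 4 upstream peaks all belonged to the largest shared-sequence group, with median copy numbers of 401.5, 24, 478 and 622.5, and the only single-copy peak was the 655 bp region 1116 bp downstream of the TSS. Zfp369, related to neurotrophin receptor interacting factors, also had 6 peaks, all downstream between 73083 and 172830 bp, and 5 of them were multi-copy. Zfp960 had 5 peaks, all upstream between 36100 and 543599 bp, and 4 were multi-copy. Zfp746 had 4, of which the promoter peak was single-copy and the 3 upstream ones were not. For these genes a high number of assigned peaks did not mean a high number of promoter peaks, since Zfp369, Zfp462 and Zfp960 had 0 within 1 kb.

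By contrast, Zfp64, Zfp316 and Zfp800 each had 3 peaks, all at single-copy sequence and 1 of them within 1 kb of the TSS. Zfp316 combined a 1117 bp promoter peak, the 2640 bp finger-exon peak 15873 bp downstream and a 925 bp peak 18073 bp upstream that also held 5 finger patterns. Zfp64 combined a promoter peak of 634 bp with peaks 20261 and 43155 bp downstream of the deposited TSS. The farther of these lay within 1 kb of another Zfp64 TSS in GENCODE.

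Short strings, among them some of the kind bound by homeodomain or GC-box proteins, were counted in the central 200 bp on both strands. CTAATTG and CTAATGG were in 0 of the 75 Zfp centres within 1 kb and 0 of the 89 over 10 kb. In other peaks CTAATTG was in 0.187% within 1 kb and 0.197% over 10 kb, and CTAATGG in 0.187% and 0.225%. GGGCGG was in 54 of 75 Zfp centres within 1 kb (72.0%) against 65.6% of others, and in 32 of 89 over 10 kb (36.0%) against 26.0%, a difference of 9.97 points (interval 0.715 to 20.4). AAGATGG, part of the repeated sequence of the distal peaks, was in 25 of 89 (28.1%) against 29.5%. CCGGAAG was in 9.33% of Zfp centres against 5.22% of others within 1 kb, and in 8.99% against 13.1% over 10 kb. Both intervals of the difference for CCGGAAG span 0. These counts describe letters in the window and not binding.

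The 194 peaks lay on 19 of the 21 chromosomes that hold peaks. Chromosome 7 had 90 of the protein-coding Zfp genes and 35 of the peaks (18.0%, against 6.17% of all peaks), and 25 of its 90 genes (27.8%) had a peak. Chromosome 6 had 17 Zfp genes and 11 with a peak (64.7%), 9 of them at the promoter. Chromosome 13 had 32 Zfp genes, of which 7 had a peak and 1 a promoter peak, and 10 of its 12 Zfp peaks were multi-copy. Over all protein-coding genes of the genome 37.5% had a peak and 23.2% a promoter peak. Intervals and backgrounds were not computed per chromosome, so a departure of any 1 chromosome was not tested.

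**Figure D5:**
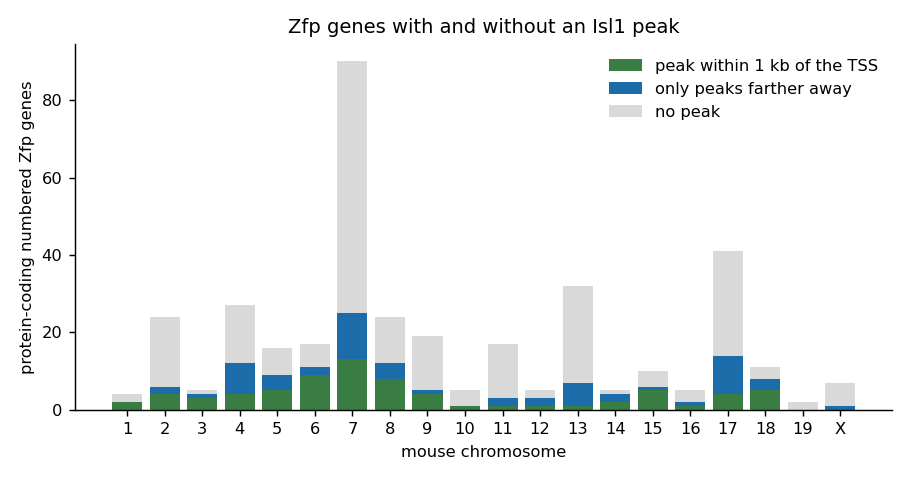
Number of protein-coding numbered Zfp genes (vertical axis) on each mouse chromosome (horizontal axis), split into genes with an Isl1 peak within 1 kb of the TSS (green), genes with only farther peaks (blue) and genes with no peak (grey). Chromosome 7 holds 90 genes, of which 25 have a peak, and chromosome 6 holds 17, of which 11 have one. The share over all protein-coding genes is 37.5%.

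A peak of another Zfp gene lay within 100 kb of 24 Zfp peaks (12.4%, interval 8.46 to 17.7) and of 0.943% of other peaks, while a peak of any other gene lay within 100 kb of 44.8% of Zfp peaks and 43.7% of others. Because many Zfp genes lie beside one another, the first contrast follows from the choice of genes and says nothing about peak placement. When Zfp peaks at most 500 kb apart were chained, 15 clusters with at least 2 Zfp genes held 53 peaks of 45 genes, and the other 90 genes stood alone. In clusters 23 of 53 peaks (43.4%) were within 1 kb of the TSS, against 52 of 141 (36.9%) outside. Whether this difference exceeds counting error was not tested. These are shares of listed peaks, in clusters chained from peaks, and not shares of genes as in the comparison by neighbouring TSS above.

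The largest cluster lay on chromosome 6, from 47785476 to 48395870, and held 12 peaks of 8 genes: Zfp212, Zfp282, Zfp398, Zfp467, Zfp746, Zfp777, Zfp783 and Zfp956. All 12 peaks of the list in this 610 kb belonged to Zfp genes, and 7 were within 1 kb of a TSS. It was also a KRAB-rich cluster, with 7 of its 12 peaks at KRAB-type genes, and Zfp282, Zfp398, Zfp746 and Zfp777 each had a promoter peak.

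A pair of clusters on chromosome 7 had a different make-up, with no peak at a KRAB-type gene. The tighter one, from 4866455 to 5005065, had 6 peaks of Zfp524, Zfp579, Zfp580, Zfp628 and Zfp784, none at multi-copy sequence and 3 within 1 kb. The other, from 134387592 to 135020407, had 5 peaks of Zfp629, Zfp668, Zfp768 and Zfp771, 4 of them within 1 kb, among 13 peaks in all.

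Zfp521, the closest relative of Zfp423 and a regulator of blood, bone and neural progenitors, had a contrasting arrangement. Its 3 peaks lay 2463, 295640 and 390640 bp downstream of the TSS with widths of 553, 612 and 766 bp, and only the nearest, in an intron, was at single-copy sequence. The peaks farthest from their gene on the upstream side were at Zfp960, Zfp462 and Zfp507, which lay 543599, 500539 and 402104 bp away. On the downstream side, Zfp521 held the 2 farthest, and Zfp369, Zfp619 and Zfp326 followed at 172830, 172117 and 146732 bp.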

How the data were processed

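Isl1 ChIP-seq was performed on day 5 progenitors (2 ChIP samples, 1 input). The authors aligned reads to mm9 with Bowtie2 at default settings, removed duplicates with Picard 1.136, called peaks with MACS, removed blacklisted regions, took areas common to replicates with bedtools 2.15 and assigned each to its nearest TSS with annotatePeaks.pl. The deposited columns are peak borders and distances in bp, a transcript identifier and a symbol, with no score or count. Members and lists were chosen with earlier results of these data known. Identical lines were removed (14165 to 14082), starts were read as zero-based, and the midpoint with its central 200 bp was read from NCBI m37. Copy number is the median number of genome occurrences of the 31-mers there, on both strands, checked on simulated sequence. Gene features, promoter windows and proteins came from GENCODE vM1, and current symbols and the protein-coding background from RefSeq (GRCm38.p6, names only): of 9313 names, 9031 matched directly, 274 by accession or synonym, and 8 not. A KRAB-type string is 1 of 3 regular expressions in the translation, and 8 Zfp genes had no protein. Shares carry 95% Wilson intervals and differences Newcombe intervals. No p-value was computed, since the list is 1 set of regions. Named genes followed these rules: the 10 genes with most peaks, the widest, narrowest and farthest peaks, the 3 largest clusters, coding-exon peaks and a list from general knowledge. Others are named for a count, a sequence or an overlap and were chosen after their values were seen. The distance limit, peak width, merging, copy number, symbols and counting were varied. Python 3.11.15, pandas 2.3.3, numpy 2.4.6, numba 0.67.0, networkx 3.6.1 and Biopython 1.88 were used.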

Additional observations from a re-analysis of the deposited data

How the results depend on the processing

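No paired analysis was possible because the list combines both ChIP samples and the input shares fewer than 2 replicate numbers with them; leaving out a replicate and a stricter peak threshold were likewise not possible. Of 78 recalculations, 56 stayed within the 95% interval of the reported value (for the number of peaks, within 1.5 times), 21 moved beyond it and 1 changed direction. KRAB-type genes were taken from GENCODE translations, an alternative chosen after seeing the data, since the RefSeq protein version was not run. With only KRAB-type genes there were 70 peaks, 21.4% within 1 kb, a median width of 726 bp, 23.6% of genes with a peak and mean GC of 63.6%, and the share at multi-copy sequence was 57.1%, above rather than below the 46.6% of other peaks (interval of the difference -1.15 to 21.5); the cause was not tested. With only the genes lacking the string the values were 122 peaks, 48.4%, 56.7% of genes, 27.0% at multi-copy sequence and mean GC of 70.1%. With single-copy peaks only there were 120 peaks, 61.7% within 1 kb (70.1% of other peaks, a difference whose interval of -17.4 to -0.176 excludes 0, unlike the main one), 1.18 peaks per gene, 27.9% of genes with a peak (27.6% of other genes) and mean GC of 71.6%. A distance limit of 5 kb gave 50.5%. Requiring a promoter peak gave 19.9% of genes, and at least 2 peaks 9.56%. A neighbour within 250 kb was found for 22.7% of Zfp peaks, 75-mers put 25.3% at multi-copy sequence against 28.5% of other peaks (interval -8.86 to 3.38, so the difference no longer exceeds counting error), and whole peaks had a mean GC of 61.1%. Leaving out chromosome 7 or Zfp369 was run for the number, promoter share, width, peaks per gene, gene share, neighbours, multi-copy share and GC content, and moved none of these beyond its interval; it was not run for the KRAB-type, distance-class, GC-band and gene-clustering differences.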
